A study of Mus musculus with 6 samples.

Results

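The genes described here are 10 regulators through which mouse cardiomyocytes leave the cell cycle after birth or become polyploid: *Tnni3k*, *Meis1*, *Meis2*, *Lmnb2*, *Ect2*, *E2f7*, *E2f8*, *Foxm1*, *Rb1* and *E2f1*. Their symbols were given as a list, drawn up with earlier results of these data known and with no threshold on a measured value, and all 10 were found among the 19079 genes of the deposited comparison. All 10 also passed the filter on low values, which 15172 genes passed. The filter asked for a mean over the 6 samples of at least 10 normalized counts, which are read counts divided by a size factor for each library.

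Ventricular RNA was sequenced at postnatal day 10 (P10) from 2 Myh6-CreER controls and 4 *Runx1* OE mice, all of strain C57BL/6 in the labels and of a C57Bl/6J background in the study's methods. *Runx1* OE mice carried Myh6-CreER, a tamoxifen-inducible Cre recombinase driven by a cardiomyocyte promoter, and a Rosa-Runx1 allele from which Cre switches on *Runx1*. The controls carried Myh6-CreER alone, and both groups received tamoxifen at P0 and P1, so exposure to the active recombinase was shared. Atria and outflow tract had been removed, and the sources speak of whole ventricles in some places and of left ventricles in another. The RNA came from all cells of the tissue while the transgene acts in cardiomyocytes, and in such bulk samples fewer cells of a type and less RNA per cell cannot be told apart.

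After birth most mouse cardiomyocytes replicate their DNA and divide the nucleus without dividing the cell, which leaves them binucleated, and some go through a further round in which DNA content rises again. Entry into S phase is gated by the RB protein, which holds activator E2F proteins such as E2F1 in check. The atypical repressors E2F7 and E2F8 later shut the same target genes, and FOXM1, with the MuvB complex and MYB proteins, switches on the genes of mitosis. ECT2 activates the GTPase RhoA at the cell equator so that the cell can cleave, and lamin B2 lines the nuclear envelope that has to open before chromosomes separate. TNNI3K is a kinase of the cardiomyocyte sarcomere, and natural variation in its gene among mouse strains goes with the share of mononuclear diploid cardiomyocytes. MEIS1 is a homeodomain transcription factor whose loss in the mouse prolongs cardiomyocyte division after birth, and MEIS2 is its close relative.

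The regulatory sequence of 5 of the genes is shown because some members belong to the E2F and mitosis programme and others lie outside it. The windows are the 250 bases before the start of the canonical transcript in GENCODE M39, read from GRCm39 on the strand of the gene, 5′ to 3′. They are those of the 10 windows that hold at most 6 annotated exon bases. Capitals mark the E2F words, the cell cycle homology region (CHR) word TTTGAA and the word CCAAT, on either strand. *E2f1* (chr2:154411813-154412062) and *E2f7* (chr10:110581056-110581305) belong to the E2F family, *Rb1* (chr14:73563508-73563757) encodes the protein that restrains it, and *Lmnb2* (chr10:80754110-80754359) and *Tnni3k* (chr3:154761447-154761696) lie outside it.
E2f1: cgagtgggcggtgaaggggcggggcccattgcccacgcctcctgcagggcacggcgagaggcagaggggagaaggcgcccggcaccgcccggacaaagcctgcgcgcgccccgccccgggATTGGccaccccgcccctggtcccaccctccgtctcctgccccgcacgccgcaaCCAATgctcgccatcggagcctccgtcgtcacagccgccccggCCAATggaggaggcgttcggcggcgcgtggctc
E2f7: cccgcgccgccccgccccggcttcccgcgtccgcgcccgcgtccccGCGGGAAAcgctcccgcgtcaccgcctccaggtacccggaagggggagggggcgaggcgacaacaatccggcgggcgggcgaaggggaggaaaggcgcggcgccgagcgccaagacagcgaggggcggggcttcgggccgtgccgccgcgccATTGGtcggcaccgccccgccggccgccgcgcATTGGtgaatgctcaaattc
Rb1: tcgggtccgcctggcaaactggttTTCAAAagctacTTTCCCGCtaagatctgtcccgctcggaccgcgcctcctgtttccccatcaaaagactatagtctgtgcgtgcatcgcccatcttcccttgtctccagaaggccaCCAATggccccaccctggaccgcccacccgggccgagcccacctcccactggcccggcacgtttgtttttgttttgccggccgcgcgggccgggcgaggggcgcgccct
Lmnb2: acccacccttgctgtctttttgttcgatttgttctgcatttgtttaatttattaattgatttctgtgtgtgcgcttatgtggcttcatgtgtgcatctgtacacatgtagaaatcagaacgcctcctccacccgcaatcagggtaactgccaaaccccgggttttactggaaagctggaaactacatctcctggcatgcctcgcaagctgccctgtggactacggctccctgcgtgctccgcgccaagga
Tnni3k: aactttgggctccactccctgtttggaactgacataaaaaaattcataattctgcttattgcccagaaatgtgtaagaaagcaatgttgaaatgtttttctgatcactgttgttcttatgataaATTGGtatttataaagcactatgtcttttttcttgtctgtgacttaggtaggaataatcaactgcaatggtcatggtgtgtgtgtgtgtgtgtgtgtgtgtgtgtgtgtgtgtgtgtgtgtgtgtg

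The E2F words searched were TTTCCCGC, TTTCGCGC, TTTGCCGC and TTTGGCGC, on both strands, and 3.02% of the 250-base windows of 13032 protein-coding genes held any of them. The windows of *E2f7*, *E2f8* and *Rb1* held an E2F word, *E2f7* at positions -204 to -197 from the start and *Rb1* at -214 to -207. The CHR word, which is found in promoters of mitotic genes, was in the windows of *Ect2* and *Rb1* and in 12.2% of all windows. The CCAAT word was in 7 of the 10 windows, against 35.8% of all, and it occurred 3 times in that of *E2f1* and once in that of *Tnni3k*, at -126 to -122. The RUNX word TGTGGT, in 11.5% of all windows, was in those of *Meis1* and *Ect2* and is not in the 5 shown. No searched word was in the windows of *Foxm1*, *Lmnb2* or *Meis2*. These matches describe letters in a window and were not tested as binding sites.

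*Runx1* itself checks the labels. The authors' group means were 16622 normalized counts in *Runx1* OE and 40.2 in the controls, a log2 ratio of 8.69 (SE 0.47), and *Runx1* was called higher by limma's moderated test (adjusted p = 0.000248). Throughout, that name stands for a t test on the ratio of the group means, with its variance moderated by limma. It was not a limma fit to values per library. Over the 15172 tested genes the median log2 ratio was 0.01, and the group means summed to 19199157 normalized counts in *Runx1* OE and 19870568 in the controls. The means of *Xist*, the RNA that silences an X chromosome in females, were 4584 normalized counts in *Runx1* OE and 8.92 in the controls, and no control library can hold more than 17.9. A *Runx1* OE library held 7493, so by *Xist* the mix of sexes differed between the groups. The study's methods say that both sexes entered its experiments and were pooled, but the sex of each mouse sequenced is not stated. With no control of high *Xist*, the part of sex in the values of the 10 genes could not be told apart from that of genotype and was not tested. All 8 cardiomyocyte markers looked up were measured, and their means summed to 460500 normalized counts in *Runx1* OE and 587200 in the controls. Much of the gap lay in *Myh6* (110044 and 164720) and *Pln* (58845 and 103894). *Myl2* (84374 and 78674) and *Tnni3* (14647 and 14299) were higher in *Runx1* OE. The 3 atrial markers tested summed to 1746 and 398 normalized counts, of which *Nppa* held 1420 and 288. *Myl4* had means of 253 and 88.9 and *Myl7* of 73.3 and 21.7. None of the 3 was called by limma's moderated test, and the source of the difference was not tested.

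The names of the columns with a value for each library matched no sample label, so each gene is given by the authors' mean of each group and by the lowest and highest value that any library of a group can hold. Those limits follow from the 2 group means together with the deposited total, maximum and geometric mean over the 6 libraries. The same quantities give the spread between libraries of a group, as a standard deviation (SD) on the log2 scale with 4 degrees of freedom, and from it the standard error (SE) of the log2 ratio of the group means. The series' design counts the libraries as littermate mice. Shared litters are not named, and there were only 2 controls.

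No member passed an adjusted p of 0.05 in limma's moderated test: 0 of 10 were called higher, against 1.02% of all tested genes, and 0 of 10 were called lower, against 0.573%. At an unadjusted p under 0.05, *Meis1* and *Lmnb2* were on the higher side and *Tnni3k* and *Rb1* on the lower side, while 1973 of the 15172 tested genes passed that threshold. The log2 ratio was above 0 in 7 of the 10 members, with a median of 0.40, and in 51.8% of all tested genes. By the limits on single libraries, all 4 *Runx1* OE libraries lay below both controls in *Tnni3k* and *Rb1*, which is 2 of 10 members against 8.01% of tested genes. The limits placed all 4 above both controls in no member, against 8.43%. The groups had to overlap in 5 members, *E2f1*, *E2f7*, *E2f8*, *Foxm1* and *Ect2*, against 59.6% of tested genes. In the other 3, *Meis1*, *Meis2* and *Lmnb2*, the limits left it undetermined, as in 3635 of the 15172 tested genes. The 8.01% and 8.43% are therefore the lowest possible shares.

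**Figure D1:**
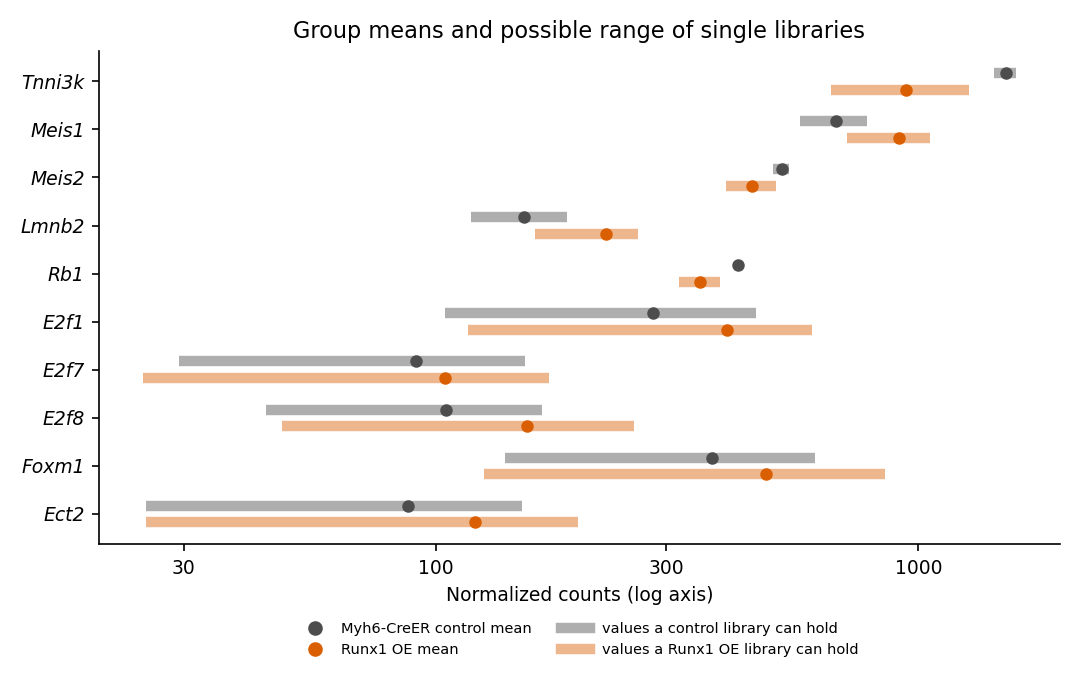
Points are the authors' group means of the 10 genes and bars the values that a single library of the group can hold, in normalized counts on a log axis, with Myh6-CreER controls in grey and *Runx1* OE in orange. The bars of *Tnni3k* and *Rb1* are apart, with the control mean above, while those of *E2f1*, *E2f7*, *E2f8*, *Foxm1* and *Ect2* cover each other over most of their length; levels are not per length and do not rank the genes.

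*Tnni3k* (ENSMUSG00000040086, chr3:154491928-154761044, minus strand, mm39) had the ratio farthest from 0 among the members. The authors' mean was 942 normalized counts in *Runx1* OE and 1520 in the controls. The controls can lie only between 1438 and 1595 normalized counts and the *Runx1* OE libraries between 658 and 1274. All 4 *Runx1* OE libraries were therefore below both controls, and the highest and lowest of them differed at least 1.45-fold. The log2 ratio was -0.69 (SE 0.19, 95% interval -1.12 to -0.26), or 0.620-fold, with an adjusted p of 0.143 by limma's moderated test. No exon of another gene shared bases with an exon of *Tnni3k* in GENCODE M39. *Fpgt*, an enzyme of fucose metabolism whose human gene is known to be read through into *TNNI3K*, had means of 197 and 193 normalized counts and a log2 ratio of 0.03 (SE 0.13).

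TNNI3K was named for its binding to cardiac troponin I, and the troponin I genes were looked up with it and with *Fpgt*. Among these 4 tested genes, *Tnni3*, the adult cardiac form, had a log2 ratio of 0.03 (SE 0.13) and *Tnni1*, the slow skeletal form that predominates in the fetal heart, one of 0.39 (SE 0.23, adjusted p = 0.557 by limma's moderated test). None of the 4 was called in either direction, and *Tnni3k* alone passed an unadjusted p under 0.05. Most cardiomyocyte markers were on the same side of 0 as *Tnni3k*: 6 of the 8 had a log2 ratio below 0, the median was -0.33, and 0 were called by limma's moderated test, with 3 on the lower side at an unadjusted p under 0.05. *Pln*, the inhibitor of the calcium pump, had a log2 ratio of -0.82 (SE 0.18), *Ryr2*, the calcium release channel, one of -0.75 (SE 0.29) and *Nkx2-5*, a cardiac transcription factor, one of -0.36 (SE 0.12). Their part in the *Tnni3k* value was not tested.

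*Meis1* and *Meis2* lay on opposite sides of 0 and neither was called. *Meis1* (ENSMUSG00000020160, chr11:18829817-18968985, minus strand) averaged 913 normalized counts in the *Runx1* OE libraries and 675 in the controls. Control libraries can lie between 569 and 783 and *Runx1* OE libraries between 713 and 1057, so the highest value was in a *Runx1* OE library and it is undetermined whether the groups overlapped. The log2 ratio was 0.44 (SE 0.15, 95% interval 0.09 to 0.79) with an adjusted p of 0.265 by limma's moderated test. *Meis2* (ENSMUSG00000027210, chr2:115693545-115896320, minus strand) had means of 452 and 521 normalized counts, with controls between 500.2 and 540.2 and *Runx1* OE libraries between 399.9 and 508. Its log2 ratio was -0.21 (SE 0.12, 95% interval -0.47 to 0.06, adjusted p = 0.520), and an overlap of the groups is again undetermined. *Gm37818*, on the same strand, shared 9.11% of the exon bases of *Meis1*. Annotated lncRNAs on the opposite strand shared up to 7.93% of them and 5.52% of the exon bases of *Meis2*, and no source used here says whether counting was by strand.

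MEIS proteins bind DNA with PBX partners, and both belong to the TALE class of homeodomain proteins together with PKNOX, TGIF and IRX factors. Of the 13 TALE genes tested, 0 were called by limma's moderated test, 2 were on the higher side at an unadjusted p under 0.05, and the median log2 ratio was 0.09. Besides *Meis1* the second of these was *Meis3*, with means of 91.6 and 64.3 normalized counts and a log2 ratio of 0.51 (SE 0.19, adjusted p = 0.281). *Meis3* libraries can lie between 71.1 and 101 normalized counts in *Runx1* OE and between 53.1 and 75.7 in the controls. These ranges touch, but no single set of 6 values that meets the deposited summaries has the groups overlap.

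MEIS1 activates genes of cyclin-dependent kinase (CDK) inhibitors in mouse cardiomyocytes. Of the 5 CDK inhibitor genes tested, *Cdkn1a*, a target of p53, was the only call and was higher, against 1.02% of all tested genes. It had means of 1289 and 695 normalized counts and a log2 ratio of 0.89 (SE 0.11, adjusted p = 0.00961 by limma's moderated test). Its libraries cannot overlap between the groups, since *Runx1* OE lay between 1140 and 1417 normalized counts and the controls between 644 and 748. The call was lost with each gene's variance alone. *Cdkn1b*, which restrains CDK2 in resting cells, had a log2 ratio of -0.24 (SE 0.09, adjusted p = 0.311), *Cdkn2d*, an inhibitor of CDK4 and CDK6, one of 0.52 (SE 0.23, adjusted p = 0.398), and *Cdkn1c*, an imprinted inhibitor, one of -0.08 (SE 0.13).

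*Lmnb2* (ENSMUSG00000062075, chr10:80737037-80754079, minus strand), which encodes lamin B2, had the highest log2 ratio of the 10. Its means were 225 normalized counts in *Runx1* OE and 152 in the controls, a log2 ratio of 0.57 (SE 0.19, 95% interval 0.12 to 1.01), with an adjusted p of 0.251 by limma's moderated test. Control libraries can lie between 118.5 and 187 normalized counts and *Runx1* OE libraries between 160.4 and 262, which leaves the overlap undetermined. Annotated lncRNAs on the opposite strand, *Gm66154* and *Gm66160*, shared 17.5% and 11.6% of its exon bases, and without knowledge of the strand setting their reads cannot be told apart from those of *Lmnb2* there.

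*Lmnb2* had the highest log2 ratio among the genes of the nuclear lamina and envelope. Of 16 lamina and envelope genes tested, *Lmnb2* included, 0 were called by limma's moderated test, 1 was on each side at an unadjusted p under 0.05, and the median log2 ratio was -0.00. *Syne1* and *Syne2*, which encode the nesprins that tie the nucleus to the cytoskeleton, had log2 ratios of -0.34 (SE 0.13, adjusted p = 0.297) and -0.28 (SE 0.15, adjusted p = 0.480). *Lmnb1*, the other B-type lamin and a gene named here after its values were seen, had a log2 ratio of 0.24 (SE 0.32), and of -0.04 to -0.03 without its highest library. Its spread within the groups was 3.36 times that of the trend of genes at its level, against 1.46 times for *Lmnb2*.

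*Rb1* (ENSMUSG00000022105, chr14:73421113-73563262, minus strand) had the smallest spread within the groups of all 10 members. Its means were 353 normalized counts in *Runx1* OE and 424 in the controls, and the limits place both controls between 422 and 424 and the *Runx1* OE libraries between 319.9 and 389. All 4 *Runx1* OE libraries were thus below both controls. The log2 ratio was -0.26 (SE 0.11, 95% interval -0.51 to -0.01), or 0.833-fold, with an adjusted p of 0.360 by limma's moderated test. The SD within the groups was 0.0825 on the log2 scale, 0.530 times the trend at that level. *Rcbtb2* and *Lpar6*, protein-coding genes on the opposite strand, shared 4.04% and 3.38% of its exon bases.

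**Figure D2:**
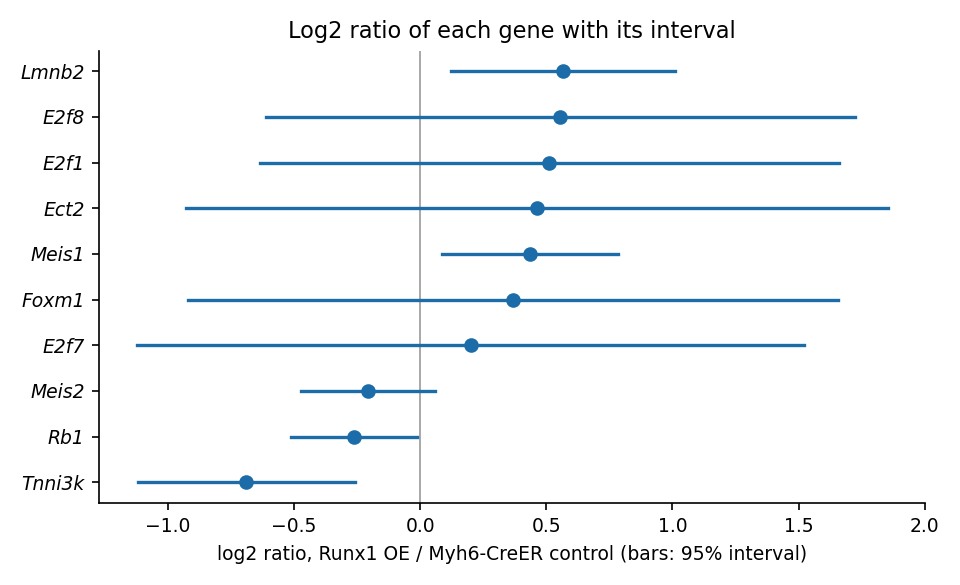
Points are log2 ratios between the authors' means of *Runx1* OE and of Myh6-CreER control libraries, and bars their 95% intervals from the moderated variance, for the 10 genes in order of the ratio. From *Lmnb2* at 0.57 down to *Tnni3k* at -0.69 the intervals of neighbouring genes overlap, and those of *Ect2*, *E2f7*, *Foxm1*, *E2f8* and *E2f1* are the widest and reach both sides of 0.

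Of the members, *E2f1*, *E2f7*, *E2f8*, *Foxm1* and *Ect2* had the widest spread between libraries of a group. *Rb1* and *Lmnb2*, whose products also act at S-phase entry and at the nuclear envelope, were not among them. *E2f1* (ENSMUSG00000027490, chr2:154401327-154411812, minus strand), the activator, averaged 402 normalized counts in *Runx1* OE and 282 in the controls, with a log2 ratio of 0.51 (SE 0.50, 95% interval -0.63 to 1.66, adjusted p = 0.735 by limma's moderated test). Its *Runx1* OE libraries can lie anywhere between 117 and 601 normalized counts and its controls between 105 and 460.5, and the groups had to overlap. The highest and lowest *Runx1* OE library differed at least 1.79-fold, and without the highest the log2 ratio was between 0.25 and 0.26.

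*E2f7* and *E2f8* are the atypical repressors, and neither was called. *E2f7* (ENSMUSG00000020185, chr10:110581300-110623245, plus strand) had means of 104 and 91.0 normalized counts, with a log2 ratio of 0.20 (SE 0.58, 95% interval -1.12 to 1.52, adjusted p = 0.918 by limma's moderated test). The highest of its 4 *Runx1* OE libraries held 172 normalized counts, and without it the log2 ratio turned to between -0.15 and -0.14. *E2f8* (ENSMUSG00000046179, chr7:48516177-48531344, minus strand) had means of 154 and 105 normalized counts and a log2 ratio of 0.56 (SE 0.51, 95% interval -0.61 to 1.73, adjusted p = 0.714). Without its highest library, a *Runx1* OE one of 258 normalized counts, that ratio was between 0.19 and 0.20. The lncRNA *Gm2788* on the opposite strand shared 20.2% of the exon bases of *E2f8*.

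*Foxm1* (ENSMUSG00000001517, chr6:128339930-128353109, plus strand) averaged 483 normalized counts in *Runx1* OE and 374 in the controls. A single *Runx1* OE library held 852 normalized counts, and the lowest and highest of that group differed at least 2.37-fold, the widest gap that had to exist in any member. The log2 ratio was 0.37 (SE 0.56, 95% interval -0.92 to 1.66, adjusted p = 0.834 by limma's moderated test), and without that library it lay between -0.06 and -0.05. *Rhno1*, a DNA damage response gene on the opposite strand, shared 6.13% of the exon bases of *Foxm1*. *Ect2* (ENSMUSG00000027699, chr3:27151371-27208027, minus strand) had means of 121 and 87.7 normalized counts and a log2 ratio of 0.46 (SE 0.61, 95% interval -0.93 to 1.85, adjusted p = 0.803). Its libraries can lie between 25.1 and 197 normalized counts in *Runx1* OE and between 25.1 and 151 in the controls, and without the highest the ratio was between 0.11 and 0.12.

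Sorted by spread, a value that does not use the group difference, the members fall into 5 wide ones and 5 narrower ones. This split was read from the values and was not set beforehand. Across the 5 genes *E2f1*, *E2f7*, *E2f8*, *Foxm1* and *Ect2* the SD within the groups was 0.816 to 0.985 on the log2 scale, which was 4.12 to 6.10 times the trend at their levels. Each of the 5 ranked above the 95th percentile of the 15172 tested genes, from the 99.0th for *E2f8* to the 99.8th for *Foxm1*. In the other 5 members the SD was 0.0825 to 0.278, from the 11.4th percentile for *Rb1* to the 92.0th for *Tnni3k*. The median over all tested genes was 0.192, or 0.997 times the trend. The values say that *Runx1* OE libraries differed among themselves in these genes. They do not say whether the controls did, since controls of nearly equal value would also meet the deposited summaries. *Runx1* itself had an SD of 0.764, 4.73 times the trend, at the 99.3rd percentile. Its highest and lowest *Runx1* OE library differed at least 1.845-fold. The part of the *Runx1* level in the spread of the 5 genes was not tested.

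**Figure D3:**
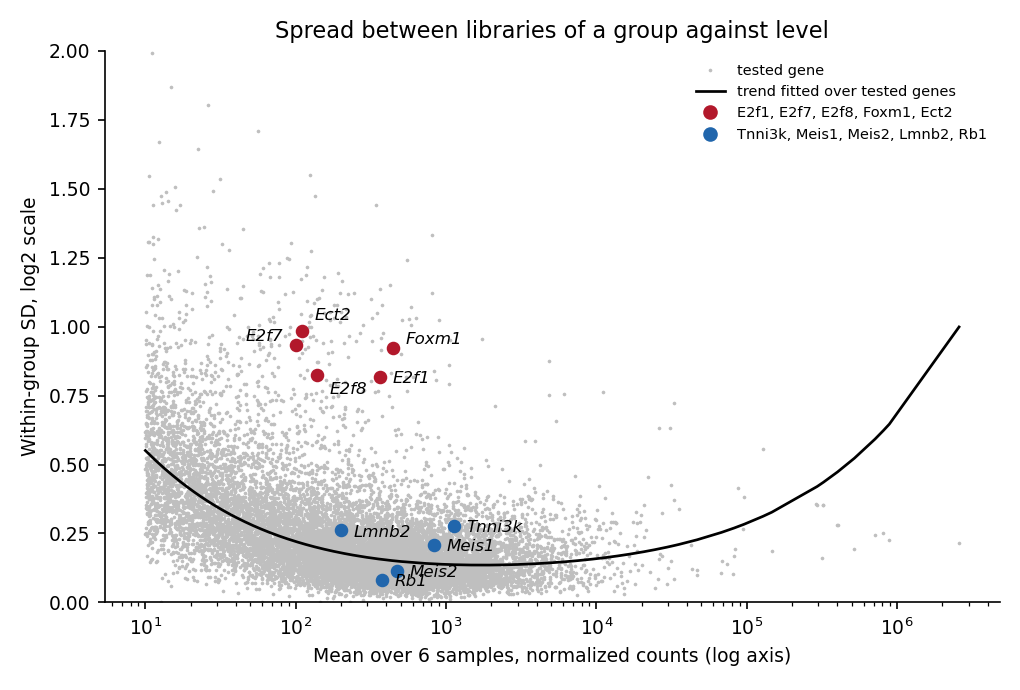
Each grey point is a tested gene, with its mean over the 6 samples in normalized counts on a log axis and its within-group SD on the log2 scale, and the line is the trend fitted over the tested genes; 7 genes above an SD of 2 are not drawn. *E2f1*, *E2f7*, *E2f8*, *Foxm1* and *Ect2*, in red, sit at 0.816 to 0.985, while *Tnni3k*, *Meis1*, *Meis2*, *Lmnb2* and *Rb1*, in blue, sit at 0.0825 to 0.278.

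The families around these genes showed where the spread was found. The lists share genes, so their medians are not separate observations. Beside each list's count at an unadjusted p under 0.05 stand the 1973 of 15172 tested genes that passed it. *Aurkb*, *Birc5*, *Plk1* and *Kif20a* are among both the FOXM1 target genes and the cytokinesis genes. In the RB and E2F family, 13 genes with *Rb1*, *E2f1*, *E2f7* and *E2f8* among them, 0 were called by limma's moderated test, 1 passed an unadjusted p under 0.05, and the median log2 ratio was 0.08. *Rbl1*, the pocket protein p107, which is itself induced in S phase, had a log2 ratio of 0.35 (SE 0.28) and a spread of 2.41 times the trend. *Tfdp2*, a dimerization partner of E2F proteins, had one of -0.21 (SE 0.14) and a spread of 1.24 times. Across the 13 genes the spread ran from 0.318 to 5.20 times the trend, and 5 were above the 95th percentile. The other activators, named here after their values were seen, were *E2f2* at 3.81 times and *E2f3* at 1.36 times. With all libraries 10 of the 13 ratios were above 0, and without each gene's highest library 7 can lie below 0. Leaving out a highest library that is a *Runx1* OE one can only lower a ratio. The same count was not made over all tested genes.

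Of the 24 E2F target genes of the G1/S transition, 0 were called by limma's moderated test and 1 passed an unadjusted p under 0.05, while 23 had a log2 ratio above 0 and the median was 0.52. The groups had to overlap in 20 of the 24, and 20 had a spread above the 95th percentile, with a median of 3.05 times the trend. Without each gene's highest library, 2 of the 24 ratios can lie below 0. The limits placed the highest of the 6 libraries in *Runx1* OE in all 24. Among tested genes they placed it there in 46.1% and in the controls in 18%, and left it open in 35.8%. As 4 of the 6 libraries were *Runx1* OE, the highest falls there more often even without a difference between groups. *Chek1*, the checkpoint kinase, had a log2 ratio of 0.76 (SE 0.32, adjusted p = 0.373 by limma's moderated test). *Tyms*, which makes thymidylate, had one of 0.92 (SE 0.40, adjusted p = 0.388), and *Orc1*, of the origin recognition complex, one of 1.04 (SE 0.46, adjusted p = 0.388). These genes were measured in the same 6 libraries, so their shared direction is not 24 separate observations, and the size of the difference was not resolved for any of them.

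Genes downstream of FOXM1 had a higher median spread. Of 21 target genes of G2 and mitosis, 0 were called by limma's moderated test and 0 passed an unadjusted p under 0.05, the median log2 ratio was 0.22 and the median spread 5.36 times the trend. With all libraries 19 of the 21 ratios were above 0, and without each gene's highest library 13 can lie below 0. That library was a *Runx1* OE one in 19 of the 21, where leaving it out can only lower a ratio. *Ccnb1*, mitotic cyclin B1, had a log2 ratio of 0.70 (SE 0.68), *Skp2*, which targets CDK inhibitors for degradation, one of 0.47 (SE 0.36), and *Cenpf*, a kinetochore protein, one of -0.55 (SE 0.47). In the MuvB, MYB and FOXM1 group of 8 genes, with *Foxm1* itself, 0 were called, 0 passed the unadjusted threshold, and the median log2 ratio was 0.21. Its cell-cycle-induced members *Mybl1* and *Mybl2* had log2 ratios of 0.82 (SE 0.56) and 0.35 (SE 0.52) and spreads of 3.50 and 3.32 times the trend, against 1.39 times for the DNA-binding MuvB subunit *Lin54*.

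*Ect2* belongs with the genes of cytokinesis and RhoA signalling, of which 19 were tested and 0 were called by limma's moderated test, with 0 at an unadjusted p under 0.05 and a median log2 ratio of 0.46. The spread was above the 95th percentile in 16 of them. The exceptions include the effector kinases of RhoA, *Rock1* with a log2 ratio of -0.25 (SE 0.14) and *Rock2* with -0.15 (SE 0.10), whose spreads were 1.34 and 0.624 times the trend. *Cit*, citron kinase of the cleavage furrow, had a log2 ratio of 0.53 (SE 0.40) and a spread of 2.85 times. *Racgap1*, the partner of ECT2 in the central spindle and a gene named here after its values were seen, had one of 0.47 (SE 0.55) and a spread of 6.07 times. Without its highest library that ratio was between 0.07 and 0.08. With all libraries 17 of the 19 ratios were above 0, and without each gene's highest library 8 can lie below 0. In 17 of the 19 the library left out was a *Runx1* OE one, which can only lower a ratio.

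**Figure D4:**
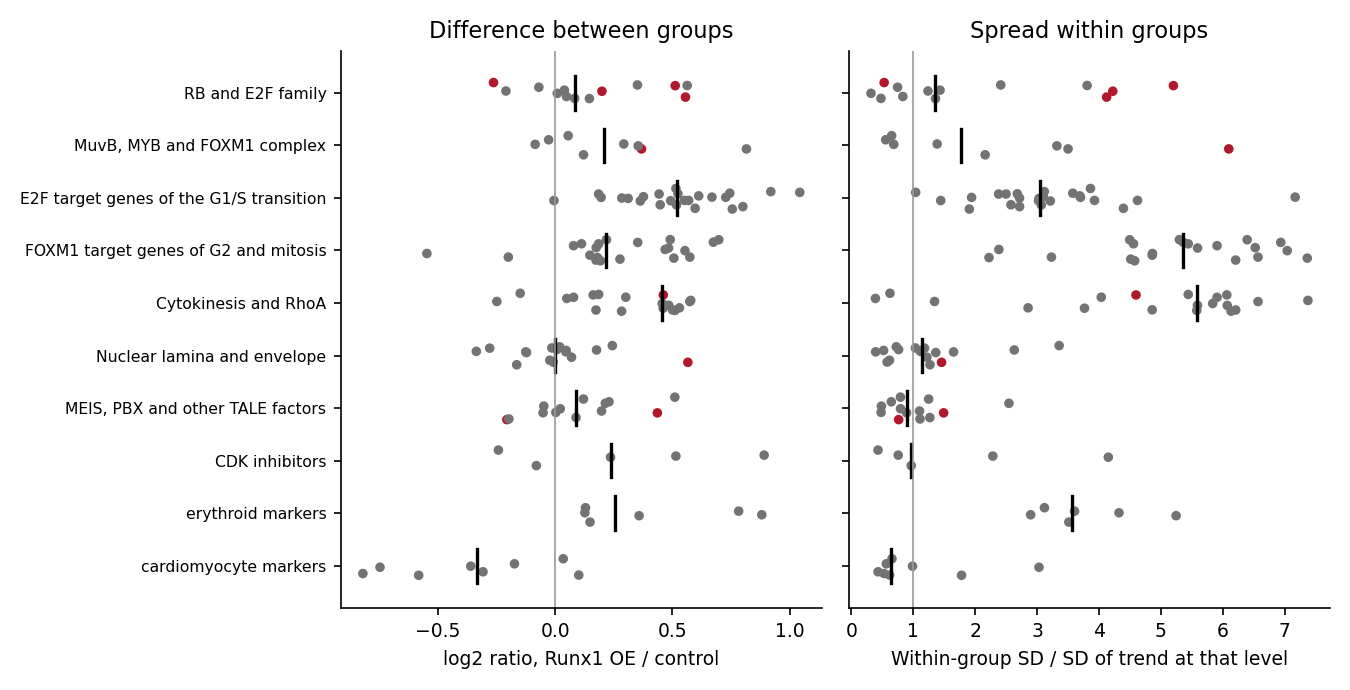
The left panel shows the log2 ratio of *Runx1* OE to control means, and the right panel the within-group SD divided by the SD of the trend, for each tested gene of 10 lists, with members in red, other genes in grey and the list's median as a black bar. E2F target genes (median ratio 0.52, median spread 3.05), FOXM1 target genes (0.22 and 5.36) and cytokinesis genes (0.46 and 5.58) stand to the right in the spread panel, and the nuclear lamina (-0.00 and 1.15) does not.

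Erythroid markers also had a wide spread. All 6 were above the 95th percentile of spread, with a median of 3.56 times the trend, all 6 had their highest value in a *Runx1* OE library, 0 were called by limma's moderated test or passed an unadjusted p under 0.05, and the median log2 ratio was 0.25. Their means summed to 72210 normalized counts in *Runx1* OE and 64800 in the controls. The 5 markers of dividing cells of any type summed to 3373 and 2592, with a median spread of 6.64 times the trend. Of these, *Pcna* is also among the E2F target genes, and *Top2a* and *Ccnb1* are among the FOXM1 target genes. In the 3 atrial markers tested the median spread was 6.26 times the trend. All 3 were above the 95th percentile of spread and had their highest value in a *Runx1* OE library. In endothelial, fibroblast, smooth muscle and pericyte, and macrophage and other leukocyte markers the median spread was 0.885 to 1.58 times the trend, and their median log2 ratios lay between -0.17 and -0.02. Which cells carried the reads of *E2f1*, *E2f7*, *E2f8*, *Foxm1* and *Ect2* was not tested, nor was the part of erythroid cells or of atrial tissue in their spread.

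Of 25 other genes tied to cardiomyocyte ploidy or its cell cycle, 1 was called higher and 1 lower by limma's moderated test, against 1.02% and 0.573% of all tested genes. *Ccnd2*, cyclin D2, which carries cells through G1, averaged 5570 normalized counts in *Runx1* OE and 3590 in the controls, with a log2 ratio of 0.63 (SE 0.10, adjusted p = 0.0238). *Cdk6*, a kinase that D-type cyclins activate, had means of 431 and 828, a log2 ratio of -0.94 (SE 0.12, adjusted p = 0.0104). In both, the libraries cannot overlap between the groups. The call of *Ccnd2* was lost with variances moderated without a trend, and both calls were lost with each gene's variance alone. Both encode parts of the kinases that phosphorylate RB, while *Rb1* itself was not called. *Erbb4*, the neuregulin receptor, had a log2 ratio of -0.88 (SE 0.17, adjusted p = 0.0523), and the thyroid hormone receptor genes *Thra* and *Thrb* had -0.33 (SE 0.12, adjusted p = 0.294) and -0.81 (SE 0.31, adjusted p = 0.317).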

How the data were processed

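Ventricular RNA of 4 *Runx1* OE and 2 Myh6-CreER mice was grouped by the labelled genotype. By the study's methods, the authors prepared oligo(dT) libraries, aligned paired reads with STAR to mm39, quantified Ensembl transcripts with Partek E/M and normalized by the median ratio. HISAT2 and mm9 are the names in the submitters' processing notes. The positions fit mm39: GENCODE M39 holds 15142 of the 15172 tested identifiers, and all 15142 overlapped their gene on GRCm39. No source used here says whether counting was by strand.

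The values used are the authors' deposited mean of each group, total, maximum and geometric mean, a signal in normalized counts, and all are their pooled values. The 6 columns of values per library were not used, since no source pairs their names with the samples. The deposited comparison also holds the authors' fold changes with limits, p-values and adjusted p, which were not used. Depth per library is therefore not given here, and the sums of the group means stand in its place.

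The planned limma fit on values per library was replaced by the fallback written beside it. For each gene that averaged 10 or more normalized counts, with a geometric mean above 0, the log2 ratio of the group means was taken with no pseudocount. The gap between the arithmetic means and the geometric mean gave the variance within groups, on 4 degrees of freedom, by a log-normal approximation. Variances were moderated with a trend on mean level (limma 3.58.1, R 4.3.3), the test was two-sided, and the Benjamini-Hochberg adjustment ran over all 15172 genes, with calls at an adjusted p under 0.05. Limits on single libraries came from all sets of 6 values that meet the deposited means within 0.2%, the maximum and the geometric mean (numpy 2.4.6). Both steps were run on simulated data, and the outcomes are not given here. For the test, the simulated variances were drawn around the trend fitted to these same data. Members and lists were chosen with earlier results of these data known. The text names all members, *Runx1*, the called genes of each list and up to 3 uncalled genes of each with the smallest p, and states other choices. Likeness of pattern between genes was not computed from 2 means. Alternatives were other filters, pseudocounts, centring and variance moderation, and the omission of chromosomes X and Y or of the highest library.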

Additional observations from a re-analysis of the deposited data

How the results depend on the processing

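No member was called under any of the 9 alternatives to the filter, the pseudocount, the centring, the variance moderation and the chromosomes. Of these, only centring could have turned a log2 ratio, and it turned none of the 10. The adjusted p of *Tnni3k* ran from 0.117 to 0.433, that of *Rb1* from 0.333 to 0.458, that of *Meis1* from 0.243 to 0.499 and that of *Lmnb2* from 0.222 to 0.484. Over all genes, the 154 higher and 87 lower calls became 86 and 47 with a pseudocount of 10, 66 and 14 with variances moderated without a trend, and 9 and 6 with each gene's variance alone. Without a filter on low values, 55 genes were called lower. *Cdkn1a*, *Ccnd2* and *Cdk6* lost their calls with each gene's variance alone, and *Ccnd2* also without the trend, while 2 of the 25 other ploidy and cell-cycle genes were called lower with centring or robust moderation. As bounds without each gene's highest library, the log2 ratio was near -0.14 for *E2f7* and near -0.05 for *Foxm1*, which turned both, and it kept its side of 0 in the other 8 members. Leaving out a highest library in *Runx1* OE can only lower a ratio, and one in the controls can only raise it. It need not be the same library in each gene. Ranked by SD without the trend on level, *E2f1*, *E2f7*, *E2f8*, *Foxm1* and *Ect2* were at percentiles 97.8 to 98.9 of the spread, and *Tnni3k* moved to 71.1. No paired analysis was possible because shared litters are not named. Leaving out each library in turn was not run because the columns of values per library could not be matched to samples. The spread within groups rests on 4 degrees of freedom and on only 2 controls.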
